A study of Yarrowia lipolytica with 3 samples.

Results

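The genes described here were at least 2-fold higher without MHY1 and less than 2-fold different with extra MHY1, by the measure given below. They are 51 of the 6448 genes listed for the dimorphic, oil-accumulating yeast Yarrowia lipolytica. A gene was taken when it reached 1 RPKM in any library, had a deletion to wild type log2 ratio of 1 or more, and had an overexpression to wild type log2 ratio strictly between -1 and 1. RPKM divides the reads of a gene by its length and by the depth of the library, and 1 RPKM was added to each value before a ratio was formed. The genes were thus chosen by their RPKM values in all 3 libraries, so the size and direction of both ratios are a description and carry no test. The rule left out 3 further genes that met it, those it names PCK1, MAE1 and AOX1.

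The libraries numbered 3, 1 per strain: a strain with MHY1 deleted (mhy1Δ), a strain overexpressing MHY1, and the wild type. All share the PO1a background and were grown at 30 °C in 50 ml of YNDC7 medium with added uracil, to an OD600 of 0.8. The labels give neither the promoter that drives extra MHY1 nor the number of clones. No strand setting is stated in the sources used, so reads of overlapping genes cannot be told apart. With 1 library per group no difference has a replicate check, and the 95% intervals below cover counting error only. Read totals implied by the values were 59527000 for the deletion, 75306802 for overexpression and 47622181 for wild type. MHY1, read here as YALI0B21582g from general knowledge of Yarrowia nomenclature, was listed at 0 in the deletion and was at 1159 RPKM in overexpression and 467 RPKM in wild type, in the order of the strain labels. Finding 0 reads leaves room for a level of up to 0.0587 RPKM there, that of 3 reads.

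MHY1 encodes a zinc-finger transcription factor that promotes the switch of this yeast from round cells to hyphae. Its zinc fingers resemble those of the Saccharomyces cerevisiae stress regulators Msn2 and Msn4, which bind short promoter elements and switch on stress genes. Yarrowia grows as round cells or as filaments according to carbon source, pH and other cues, and is known for its capacity to use fats, alkanes and organic acids. The files pair no identifiers with gene names and the reference table matched none of them, so the genes are given by identifier with no role. In this nomenclature the letter after YALI0 is the chromosome, and the number that follows increases along it.

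Among the 6035 genes compared, those with 1 RPKM or more in a library, 100 passed the 2-fold line upward in the deletion, or 1.66%, and 54 of these also lay within 2-fold in overexpression, or 0.895%, the 3 omitted genes included. The remaining 46 genes comprised 37 at least 2-fold lower and 9 at least 2-fold higher in overexpression. The median deletion to wild type log2 ratio of the 51 members was 1.35, and their range was 1.00 to 3.42. That median was -0.03 over all genes compared. Most of the members differed moderately: 42 lay between 2- and 4-fold, and 9 reached 4-fold with 1 RPKM added. Together the members made up 0.812% of all RPKM in the deletion library, 0.273% in overexpression and 0.291% in wild type.

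**Figure D1:**
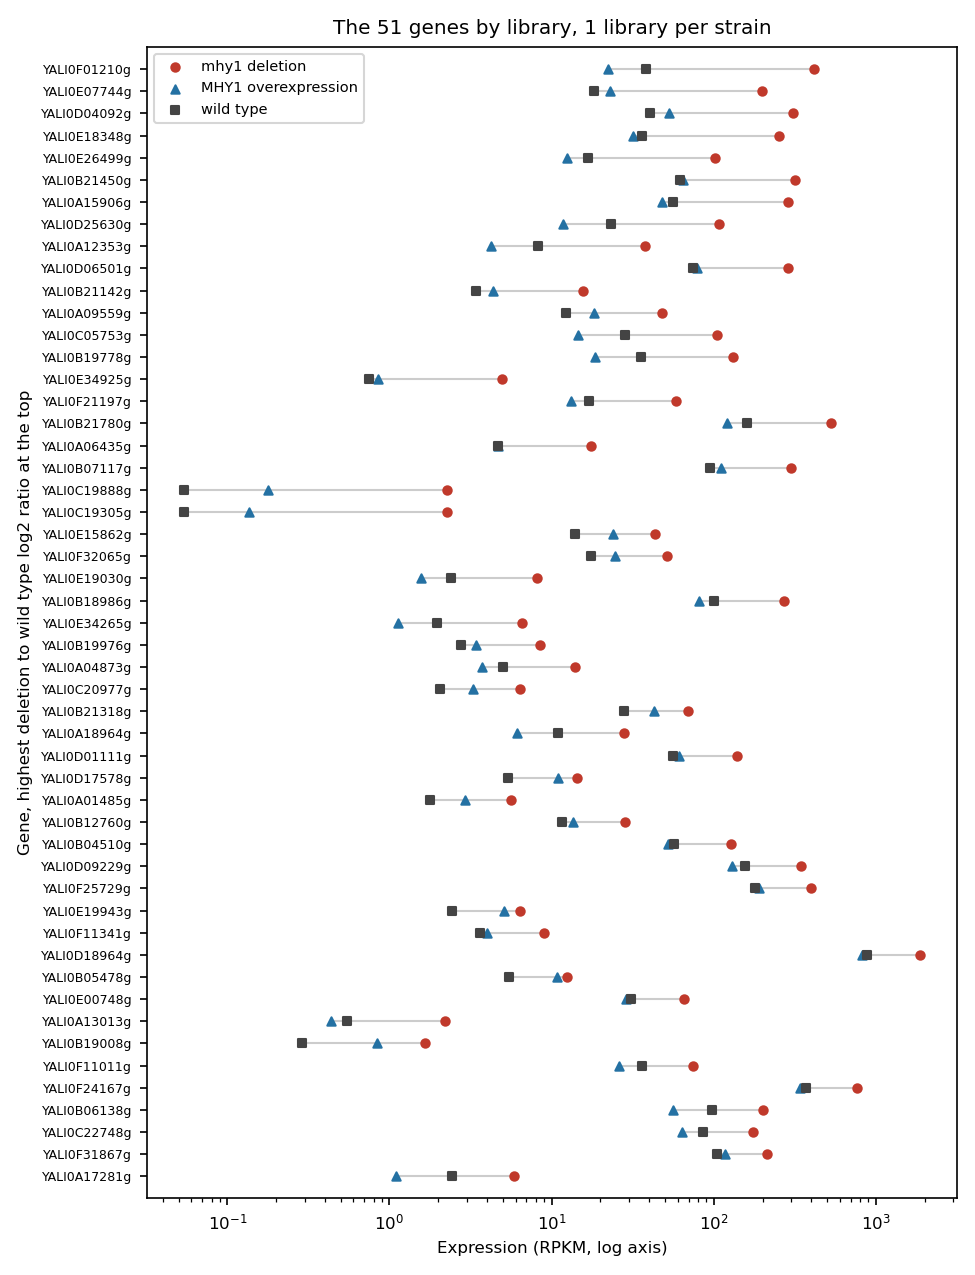
RPKM of the 51 members in each library on a log axis, ordered by deletion to wild type log2 ratio with the highest at the top; circles are the mhy1 deletion, triangles MHY1 overexpression and squares wild type, 1 library each. The deletion value is the highest of the 3 in every row, and the overexpression and wild-type values change order from row to row.

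With 1 RPKM added to both values, the largest deletion to wild type ratio belonged to YALI0F01210g, at 418 RPKM in the deletion, 22.1 in overexpression and 38.1 in wild type. Its plain RPKM ratio of deletion to wild type was 10.96 (interval 10.03 to 12.01). YALI0E07744g was at 198 RPKM in the deletion, 23.1 in overexpression and 18.3 in wild type, a plain ratio of 10.8 (10.4 to 11.2). With 1 RPKM added these 2 members were the only ones at 8-fold or more; on plain RPKM a pair of much weaker members, given further on, had higher ratios. Extra MHY1 went with opposite small differences in them: in overexpression YALI0F01210g was 1.72-fold lower than in wild type and YALI0E07744g 1.26-fold higher.

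Next came YALI0D04092g, at 308 RPKM in the deletion, 52.7 in overexpression and 40.4 in wild type, and YALI0E18348g, at 254, 31.7 and 36.2 RPKM in the same libraries. YALI0E26499g was at 102 RPKM in the deletion, 12.4 in overexpression and 16.8 in wild type. In all of these the deletion library stood alone, with the other libraries within 1.5-fold of each other. YALI0B21450g was at 319 RPKM in the deletion against 64.8 in overexpression and 62.2 in wild type, and its plain overexpression ratio of 1.04 had an interval that holds 1 (0.972 to 1.12). YALI0A15906g, at 287, 47.7 and 56.3 RPKM in deletion, overexpression and wild type, and YALI0D06501g, at 288, 79.1 and 74.0 RPKM, also stood out in the deletion alone. Their overexpression intervals did not hold 1: 0.803 to 0.891 for YALI0A15906g and 1.02 to 1.12 for YALI0D06501g.

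Among the members with a high deletion ratio, YALI0D25630g and YALI0A12353g were nearly 2-fold lower with extra MHY1. Their libraries fell in the order deletion, wild type, overexpression. The same order held, with smaller overexpression differences, in YALI0F01210g, YALI0E18348g, YALI0E26499g and YALI0A15906g. YALI0D25630g was at 108 RPKM in the deletion, 11.8 in overexpression and 23.3 in wild type. Its overexpression log2 ratio of -0.93 was the nearest of all members to the lower bound, and on plain RPKM it was 1.98-fold lower (1.81 to 2.16). YALI0A12353g, at 37.9, 4.25 and 8.25 RPKM in deletion, overexpression and wild type, was 1.94-fold lower in overexpression.

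By level, the members spread from barely detected to strongly expressed genes. Their median was 65.5 RPKM in the deletion, 18.2 in overexpression and 17.4 in wild type, where all genes compared had medians of 31.6, 38.0 and 34.1 RPKM. In wild type 19 members, or 37.3%, were under 10 RPKM, against 19.8% of all genes compared, and 7, or 13.7%, were at 100 RPKM or more, against 24.0%. In the deletion library 23 members, or 45.1%, were at 100 RPKM or more, against 23.4% of all genes compared. Weak genes were thus more frequent among the members than among all genes in wild type, and since the rule used these values nothing further is read from this.

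The highest level was that of YALI0D18964g, at 1876 RPKM in the deletion, 815 in overexpression and 885 in wild type. YALI0F24167g followed at 763, 340 and 371 RPKM, and YALI0B21780g at 531, 120 and 161 RPKM, in the same order of libraries. Among these highest members by deletion level, which also include YALI0F01210g with its plain ratio of 10.96, the plain deletion ratio was 2.12 (2.09 to 2.15) for YALI0D18964g, 2.06 (2.02 to 2.09) for YALI0F24167g and 3.29 (3.21 to 3.38) for YALI0B21780g. YALI0F25729g, at 399 RPKM in the deletion, 189 in overexpression and 180 in wild type, was 2.21-fold higher in the deletion. Over the 23 members at 100 RPKM or more in the deletion the median plain ratio was 3.29, and over all members 3.16. Overexpression and wild type differed by less than 1.1-fold in YALI0D18964g, YALI0F24167g and YALI0F25729g.

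At the other end, 5 members were under 1 RPKM in both overexpression and wild type and passed the 1 RPKM filter through the deletion library alone. A gene that passes in that way had to be high in the deletion. These 5 are included in the counts of members given here and lend them no support. Of the 19 members under 10 RPKM in wild type, 14 were between 1 and 10 RPKM and the others were these 5. YALI0E34925g was at 4.93 RPKM in the deletion, 0.844 in overexpression and 0.753 in wild type (360, 78 and 44 reads). YALI0A13013g was at 2.20 RPKM in the deletion, 0.435 in overexpression and 0.546 in wild type, and YALI0B19008g at 1.66, 0.832 and 0.289 RPKM. These weak genes have wide intervals, from 3.04 to 11.98 around the plain deletion ratio of 5.75 for YALI0B19008g.

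The remaining pair of weak members had nearly the same values. YALI0C19888g was at 2.27 RPKM in the deletion, 0.177 in overexpression and 0.0538 in wild type (527, 52 and 10 reads), and YALI0C19305g at 2.26, 0.136 and 0.0538 RPKM (524, 40 and 10 reads). Their plain deletion ratios, 42.2 (22.7 to 88.4) and 41.9 (22.6 to 87.9), were the highest of all members, and the added 1 RPKM brought their log2 ratios down to 1.63 in both. Both had a recovered length of 3903 bp, shared by 8 listed genes in all. Of the other 6, none was 2-fold higher in the deletion with 1 RPKM added, and the highest value was 5.75 RPKM. That addition hides differences between genes this weak. YALI0D05973g was listed at 0 in wild type and had 65 reads in the deletion (0.280 RPKM) and 114 in overexpression (0.388 RPKM). Genes so alike in length and value may be copies that share reads, which was not tested, and the pair is therefore uncertain as separate members.

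**Figure D2:**
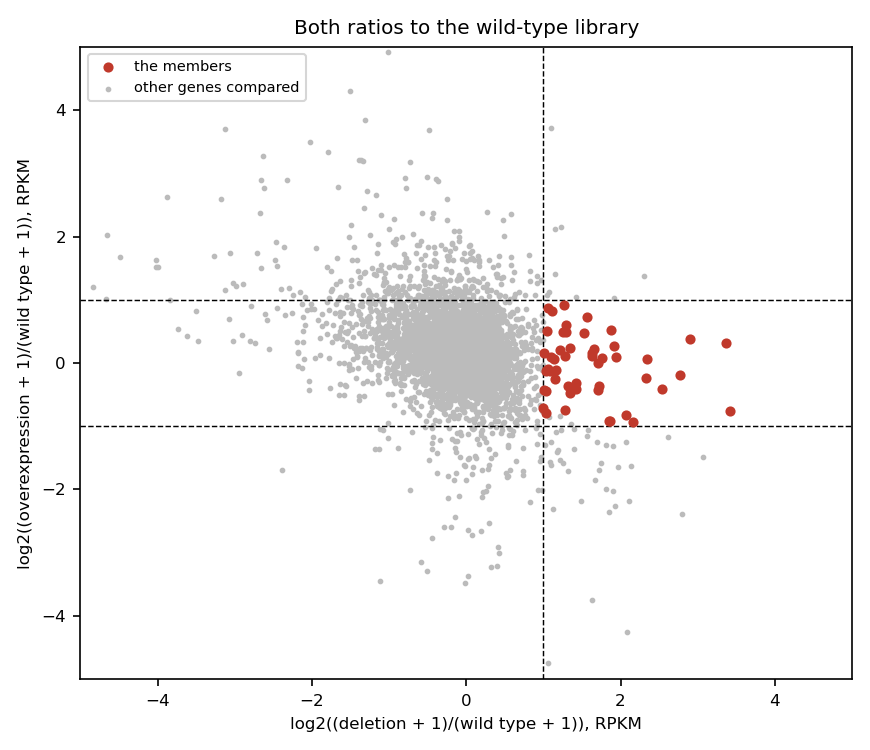
Each of the 6020 genes drawn is a point, with the deletion to wild type log2 ratio across and the overexpression to wild type log2 ratio up, both on RPKM plus 1; 15 genes beyond 5 on either axis are not drawn. The members in red fill the box right of 1 and between -1 and 1, with medians of 1.35 across and 0.01 up, and the 3 genes the rule left out are the grey points in that box.

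Within the bounds of the rule the overexpression library set the members apart from each other. The overexpression to wild type log2 ratio ran from -0.93 to 0.92 with a median of 0.01, and 26 members were above 0 and 25 below. Over all genes compared the median was 0.16, and 33.3% of ratios were below 0, against 49.0% of the members. For all genes, the overexpression ratio lay within 2-fold in 91.5%, the share from which the rule took its members. On a 1.5-fold scale 38 members, or 74.5%, lay within bounds, 8 were lower and 5 higher. Of all genes compared 77.6% were within 1.5-fold. The rule holds members within 2-fold, and of the 5525 genes compared that were within 2-fold 84.8% were within 1.5-fold. Of those 5525 genes 190 were at least 1.5-fold lower and 652 at least 1.5-fold higher, so higher was the more frequent direction there. Centring all ratios on their median over genes left 17 members above wild type in place of 26. Both ratios are formed against the same wild-type library.

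Most of the small overexpression differences exceeded counting error. The interval of the plain ratio lay below 1 for 22 members, above 1 for 21 and held 1 for 8. These counts were made for members only, so no share over all genes stands beside them. The line at 1 also takes no account of the median log2 ratio of 0.16 over all genes compared. YALI0F25729g, with a plain ratio of 1.05 (1.02 to 1.08), counts as above 1 at a log2 ratio of 0.07. How far cultures of 1 strain differ was not measured, so these counts describe libraries.

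Among the members nearest the lower bound were YALI0B19778g, at 131 RPKM in the deletion, 18.5 in overexpression and 35.7 in wild type, and YALI0C05753g, at 105, 14.5 and 28.2 RPKM. Their overexpression log2 ratios were both -0.91. YALI0B06138g was at 201 RPKM in the deletion, 55.9 in overexpression and 97.7 in wild type, a log2 ratio of -0.79. These genes border on the 37 that passed the 2-fold line downward in overexpression, of which YALI0F04169g was the nearest, at 88.4, 15.5 and 32.8 RPKM and a log2 ratio of -1.04. The 3 omitted genes sat on this side too, with overexpression log2 ratios of -0.83 for PCK1, -0.85 for MAE1 and -0.96 for AOX1. By deletion ratio AOX1 would rank 26 among the members, PCK1 36 and MAE1 42.

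Nearest the upper bound was YALI0D17578g, at 14.3 RPKM in the deletion, 10.99 in overexpression and 5.35 in wild type. YALI0B05478g was at 12.4, 10.8 and 5.43 RPKM and YALI0E19943g at 6.39, 5.07 and 2.42 RPKM in the same libraries. In these the overexpression value was nearer to the deletion than to wild type, and both engineered strains stood above wild type. YALI0E15862g, at 43.4 RPKM in the deletion, 23.8 in overexpression and 14.0 in wild type, and YALI0B21318g, at 69.6, 42.8 and 27.9 RPKM, were intermediate. Just beyond the bound was YALI0C15785g, at 29.8, 15.7 and 7.14 RPKM, with an overexpression log2 ratio of 1.03.

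The added 1 RPKM decides some memberships. On plain RPKM the overexpression value of 5 members was 2-fold or more above wild type: the weak genes YALI0C19888g, YALI0C19305g and YALI0B19008g, with YALI0D17578g at 2.05 (1.71 to 2.48) and YALI0E19943g at 2.09 (1.77 to 2.48). YALI0A17281g was at least 2-fold lower, at 5.88 RPKM in the deletion, 1.09 in overexpression and 2.43 in wild type, a plain fold of 2.23 (1.68 to 2.98). For these 6 members the words "only by loss" hold on the log2 scale with 1 RPKM added and not on plain ratios.

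**Figure D3:**
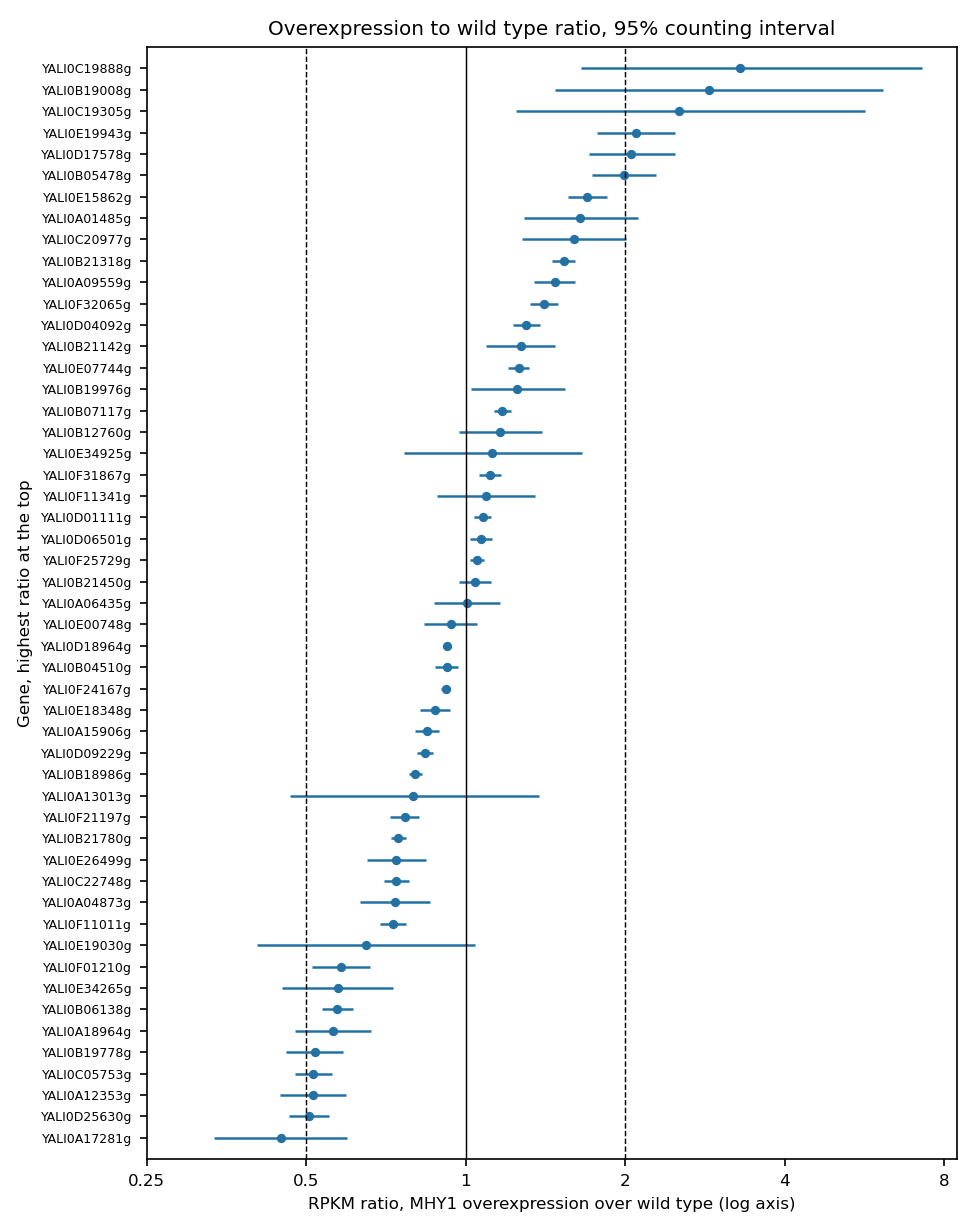
Plain RPKM ratio of MHY1 overexpression over wild type for the 51 members on a log axis, ordered by that ratio, with 95% counting intervals as lines; dashed lines mark 0.5 and 2. Ratios run evenly through 1, with 22 intervals below it and 21 above it, and 6 members have ratios beyond a dashed line.

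The comparison of overexpression with the deletion uses no wild-type value, but its libraries were both used by the rule. There 41 of the 51 members were at least 2-fold lower in overexpression, against a background of 4.74%, a count that the choice of members largely fixes. The median overexpression to deletion log2 ratio was -1.48 for the members and 0.20 for all genes compared. The other 10 members, within 2-fold, included YALI0B05478g, with the smallest difference at -0.19, and YALI0F31867g at -0.86.

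Set beside its most alike groups, the set was intermediate in level. The median RPKM of the 51 members was 65.5 in the deletion, 18.2 in overexpression and 17.4 in wild type. The 37 genes that were also 2-fold lower in overexpression had medians of 207, 17.6 and 63.3 RPKM in those libraries, and a median deletion log2 ratio of 1.63. The 9 genes higher in both engineered strains had medians of 14.9, 28.1 and 6.12 RPKM and a median deletion log2 ratio of 1.16. The groups were cut by the same libraries, so no test of their differences was made.

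At the deletion threshold, the members just inside were YALI0A17281g (log2 ratio 1.00), YALI0F31867g (1.01) and YALI0C22748g (1.01), with YALI0B06138g and YALI0F24167g at 1.03 and 1.04. YALI0F31867g was at 212 RPKM in the deletion, 117 in overexpression and 105 in wild type, and YALI0C22748g at 175, 63.8 and 86.4 RPKM. Just outside lay YALI0C16885g, at 1464 RPKM in the deletion, 822 in overexpression and 732 in wild type, with a log2 ratio of 0.999. YALI0F13937g, YALI0B07403g, YALI0F13607g and YALI0F10527g followed at 0.99 each. The counting interval of the plain deletion ratio lay wholly above 2 for 44 members and reached 2 or less for 7. The rule chose members on the same values, which largely sets these counts, and no share over all genes stands beside them. Among the 7 was YALI0E00748g, at 65.5 RPKM in the deletion, 28.8 in overexpression and 30.8 in wild type, with an interval of 1.92 to 2.36.

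The 18 members outside the naming rule, 1 of which, YALI0B21142g, is named below for its place near MHY1, had deletion values from 5.63 to 344 RPKM, overexpression values from 1.12 to 130.0 RPKM and wild-type values from 1.78 to 155 RPKM. Their deletion log2 ratios ran from 1.04 to 1.92 and their overexpression log2 ratios from -0.74 to 0.52. They hold neither the extremes of the set nor its borderline cases on the overexpression side.

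Gene length was not used by the rule. The median length recovered from the values, read as coding length, was 1035 bp for the members and 1158 bp for all genes compared; a recovered length can be a fraction of the true one. The length of 930 bp occurred in 4 members, YALI0D04092g, YALI0E18348g, YALI0A15906g and YALI0B21780g, on chromosomes D, E, A and B. Their deletion log2 ratios were 2.90, 2.77, 2.33 and 1.71, ranks 3, 4, 7 and 17 of the 51, and their overexpression log2 ratios were 0.37, -0.19, -0.24 and -0.42. This group was noticed after the values were seen. In all, 15 listed genes had this length, and of the other 11 none was 2-fold higher in the deletion. The highest of those 11 was at a log2 ratio of 0.21, and 2 were at least 2-fold lower. No single recovered length was shared by more than 20 of the genes compared. Equal length does not show that genes are related, and whether these 4 are similar in sequence was not tested.

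**Figure D4:**
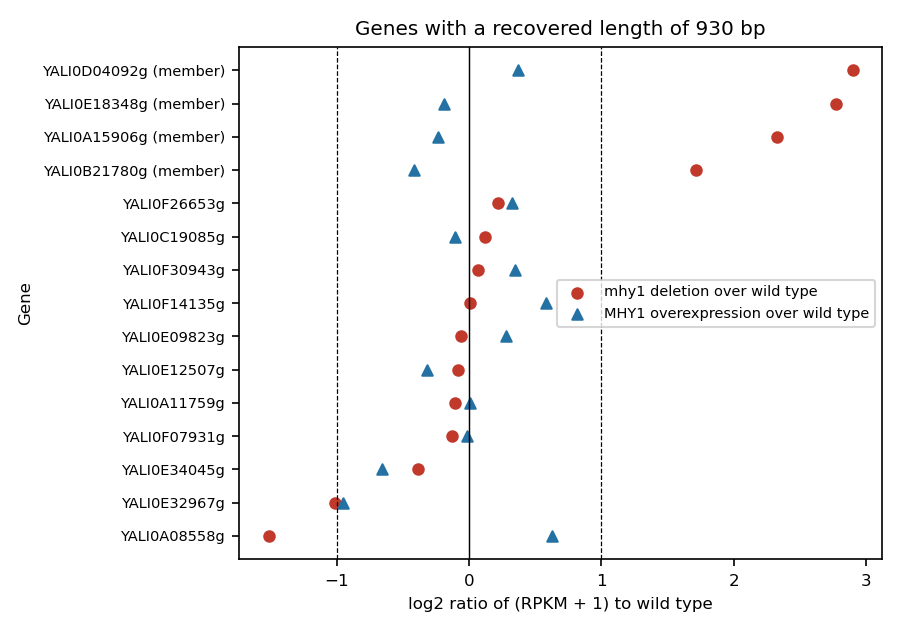
Log2 ratios to wild type of the 15 genes with a recovered length of 930 bp, circles for the mhy1 deletion and triangles for MHY1 overexpression. The 4 members lie between 1.71 and 2.90 in the deletion, the other 11 genes at 0.21 or below, and no triangle passes 1 in either direction.

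Members lay on every chromosome, but not evenly: they were 1.57% of the genes compared on A and 1.45% on B. Part of the share of B lay near MHY1, as described below. Chromosome B held 13 of the 51, or 25.5% of the members and 14.9% of the genes compared, and chromosome A held 9, or 17.6% against 9.53%. Chromosome E held 9, F held 8, D held 7 and C held 5, each under 0.7% of its genes compared. Only 1 pair of members lay within 3 places of each other in identifier order: YALI0B18986g, at 272 RPKM in the deletion, 80.8 in overexpression and 101 in wild type, and its immediate neighbour, the weak gene YALI0B19008g. Within 20 places of a chromosome end there were 3 members, all at the high-number end: YALI0F32065g, at 51.8, 24.5 and 17.4 RPKM in deletion, overexpression and wild type and 4th from the end of F, YALI0F31867g and YALI0E34925g. The share of all genes this near an end is not given here, so nothing is read from that count or its side.

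Immediate neighbours were compared with members themselves left out, so the adjacent members YALI0B18986g and YALI0B19008g are not counted. Of the 91 neighbours compared, 1 was at least 2-fold higher in the deletion, or 1.10%, and 8 were at least 2-fold lower, or 8.79%. Over all genes compared, members included, the shares were 1.66% and 5.83%. Leaving members out lowers the share of higher neighbours by construction, so nothing is read from its being under 1.66%. The neighbours' median deletion log2 ratio was -0.0048 and that of all genes compared was -0.03. Some pairs of adjacent genes differed in opposite directions. YALI0E07766g, next to YALI0E07744g, was at 1.61 RPKM in the deletion, 119 in overexpression and 9.58 in wild type. YALI0B19756g, next to YALI0B19778g, was at 138, 1284 and 468 RPKM, and YALI0D06479g, next to YALI0D06501g, at 102, 418 and 398 RPKM, so that each was lower in the deletion where its neighbour was higher. The neighbours named had the largest falls among the 8 that were at least 2-fold lower. The rest of the 8 had deletion log2 ratios from -1.41 to -1.13.

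Of the 13 members on chromosome B, 4 lay within 25 places of the MHY1 locus itself, a stretch chosen after the values were seen. These are 8.16% of the 49 genes compared there, where 0.845% of all genes compared were members. Within 20 places there were 3 members among 40 genes compared, or 7.50%. YALI0B21142g was 21 places before MHY1, YALI0B21318g 13 before, YALI0B21450g 7 before and YALI0B21780g 7 after. Beside them YALI0B21472g, next to YALI0B21450g, was at 75.0 RPKM in the deletion, 57.6 in overexpression and 27.4 in wild type, higher in both engineered strains. The genes between did not follow: the median deletion log2 ratio of the 49 genes compared in the stretch was 0.04, and 2 of them were at least 2-fold lower. The sources used do not state how the deletion was built, and its part in these values was not tested.

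**Figure D5:**
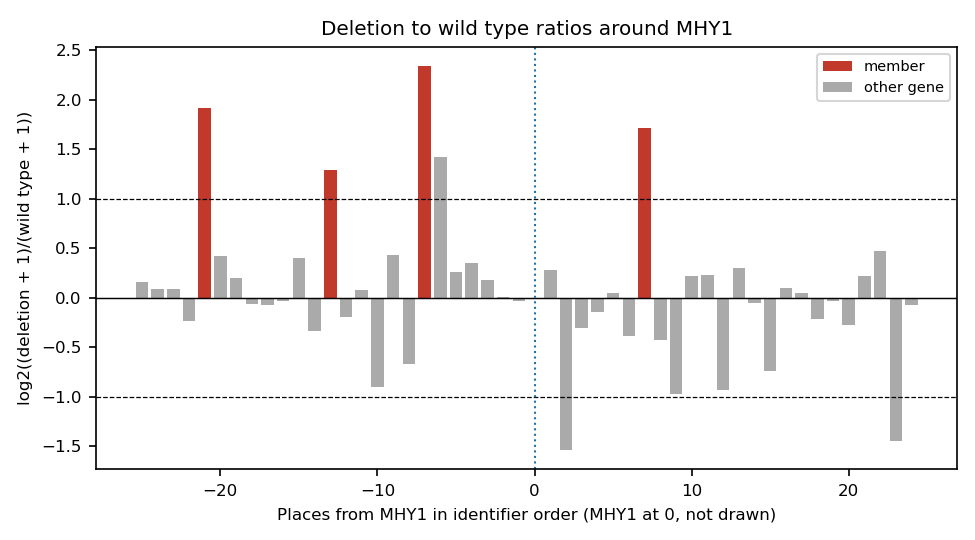
Deletion to wild type log2 ratio of the 49 genes compared within 25 places of MHY1 in identifier order, with members in red, other genes in grey and dashed lines at 1 and -1. The 4 members and 1 grey bar, YALI0B21472g, rise above 1 as isolated bars among genes near 0, and 2 grey bars fall under -1.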

How the data were processed

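RNA-seq of 3 libraries, 1 per strain, was used as RPKM values for 6448 identifiers, a unit the authors deposited per the file headers. The submitters' processing notes list TopHat2 (2.1.1) and Cufflinks (2.2.1) with no role, beside a mouse genome build that cannot have given Yarrowia identifiers; they state no yeast build, annotation or counting. Low values lie on whole-read steps, from which read totals, lengths (multiples of 3 tried first) and reads were recovered; 99.98% of values above 0 came within 0.01 of a whole read. A recovered length may be a fraction of the true one, which widens intervals. The recovery was tested on simulated data. Recovered reads made up 92.8% (deletion), 93.7% (overexpression) and 92.9% (wild type) of the totals.

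Log2 ratios added 1 RPKM to both values, among genes at 1 RPKM or more in any library. Intervals are exact conditional binomial (95%). Members and lists were chosen with earlier results of these data known. Members named are those extreme by deletion ratio or level, nearest the rule's bounds, under 1 RPKM in wild type, adjacent, at chromosome ends, or, for up to 5, with a deletion interval reaching 2-fold. Alternatives were pseudocounts of 0.1 and 5 RPKM, a filter of 10 RPKM or none, scaling by upper quartile or by median of ratios, centring, and lines at 1.5- and 4-fold. No identifier matched assembly ASM176148v1 (0 of 6448). Work used Python 3.11.15, numpy 2.4.6, pandas 2.3.3 and scipy 1.17.1.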

Additional observations from a re-analysis of the deposited data

How the results depend on the processing

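The rule found 57 genes with a pseudocount of 0.1 RPKM, 47 of them among the 51, and 40 with a pseudocount of 5 RPKM, 31 of them among the 51; the other 20 fell under 2-fold in the deletion. Median of ratios scaling gave 64 genes, upper-quartile scaling 63 and centring 60, each with 48 of the 51. Without a filter the count could not move. A filter at 10 RPKM left 38. A line at 1.5-fold gave 148 genes (281 higher in the deletion overall) and a line at 4-fold 14 (17 overall), counts that move by construction. The members' median deletion to wild type log2 ratio was 1.62 with a pseudocount of 0.1 RPKM and 1.11 with 5 RPKM. Their median overexpression to deletion log2 ratio was -1.83 with 0.1 RPKM and -1.16 with 5 RPKM. Members above wild type in overexpression numbered 17 at 10 RPKM or more, where 13 members are removed, and 17 after centring, against 26. Of 224 deletion ratios of named members under these pseudocounts, filters and scalings, 212 stayed at 2-fold or more and 0 changed sign. The 12 that fell under 2-fold were all among the 33 named members with 5 RPKM added. The other settings left each ratio unchanged, raised it or removed the member, so they could bring none under 2-fold. The 212 therefore do not measure robustness. No paired analysis was possible because there was 1 library per strain, so none could be left out either. Few reads limit the weak members, with 10 in wild type at the lowest.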
